A study of Mus musculus with 8 samples.

Results

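The injury response described here is the difference between wild-type (WT) mouse kidneys taken 1 day after ischemia-reperfusion injury (IRI) and WT kidneys without injury (normal). It rests on 4 of the 8 arrays of the series, 2 per group, picked by their sample titles. All mice were males of 16 weeks and carried the wild-type Keap1 gene. For the injury, the vessels of the left kidney had been closed for 45 min and reopened while the right kidney was left alone, and the left kidney was analysed. Normal left kidneys had been removed without any clamping, and the labels mention no sham operation, strain or hour of harvest. The other 4 arrays hold kidneys with a knockdown (KD) of Keap1, 2 normal and 2 after the same injury. They served to estimate the spread and to test where the injury response differed between the genotypes. Keap1 itself encodes the adaptor that marks the transcription factor NRF2 for degradation. Neither Keap1 (log2 difference -0.13, adjusted p = 0.395) nor Nfe2l2, which encodes NRF2 (0.22, adjusted p = 0.16), passed the threshold in WT. Samples of a group are not stated to be separate animals, so the p-values measure only the spread between these samples, which may be technical.

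When the blood supply of a kidney is cut off and restored, the tubule is injured most, above all the late proximal tubule, which depends on oxygen to burn fatty acids and other fuels. Cells die or are shed, leukocytes enter, and surviving tubule cells lose specialised functions, spread over the denuded basement membrane and divide. In whole tissue, fewer cells of a type and less RNA per cell cannot be told apart, and each value below is an average over all cells of the kidney.

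A level is the log2 fluorescence of a gene's brightest probe minus the log2 of the array's 75th percentile, and a change is the log2 difference of IRI minus normal, with limma's moderated standard error (SE) and 2 arrays in each group (n = 2). A gene is said to have risen or fallen where limma's adjusted p was below 0.05. Of 20244 genes tested 4191 rose, which is 20.7%, and 5289 fell, which is 26.1%, so that 46.8% changed. By at least 2-fold, 1717 genes (8.48%) rose and 1702 (8.41%) fell. Among the 20294 genes kept by the filter, 1223 were below background on both normal arrays and 98 on both injured arrays. The filter kept these genes only through the other group, so their direction was largely set in advance, mostly towards a rise. The median change over all genes was -0.08, and the arrays of the groups did not overlap for 76.9% of genes. Calls fell to 5939 without WT normal replicate 1 and to 6159 without WT normal replicate 2. The injury response differed between WT and KD in 1265 genes (6.25%), among them Uhrf1, Cdk1 and Col1a1 named below. The number of arrays limits the precision. Each of 2 slides held 1 array of every group. Across genes, the change on slide 1 had r = 0.880 with that on slide 2, where genes do not count as replicates. Normal WT arrays had 62.1% of their probes well above background, and the injured ones 67.3% and 67.8%. The kidney label held: markers of podocytes, thick ascending limb, collecting duct and intercalated cells were all well above background in normal kidney, apart from 1 gene left untested.

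The known injury markers served as reference points. Havcr1, the KIM-1 gene, stood at levels of -3.66 and -4.67 on the normal arrays and at 4.46 and 5.13 on the injured ones. Lcn2, the NGAL gene, went from -4.22 and -3.92 to 2.44 and 3.77. Slc34a1, the main phosphate transporter of the proximal tubule, went the other way, from 7.03 and 7.05 to 5.51 and 4.61. The groups did not overlap for any of these, nor for 76.9% of all genes. Beside these markers, some of the largest changes concerned genes seldom used as injury markers. Grp, which encodes gastrin-releasing peptide, was at least 46.6-fold higher, and Rhox6, a homeobox gene of the X chromosome, was at least 48.2-fold lower. The fold is a lower bound where a gene was not well above background on both arrays of a group, the dimmer side being held at or over the faintest signal that still counted as well above background on that array. Rbmy, a gene of the Y chromosome present in many near-identical copies, was at least 92.9-fold higher (normal levels -5.89 and -6.68, injured 0.07 and 2.92), and its probe cannot tell the copies apart.

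**Figure D1:**
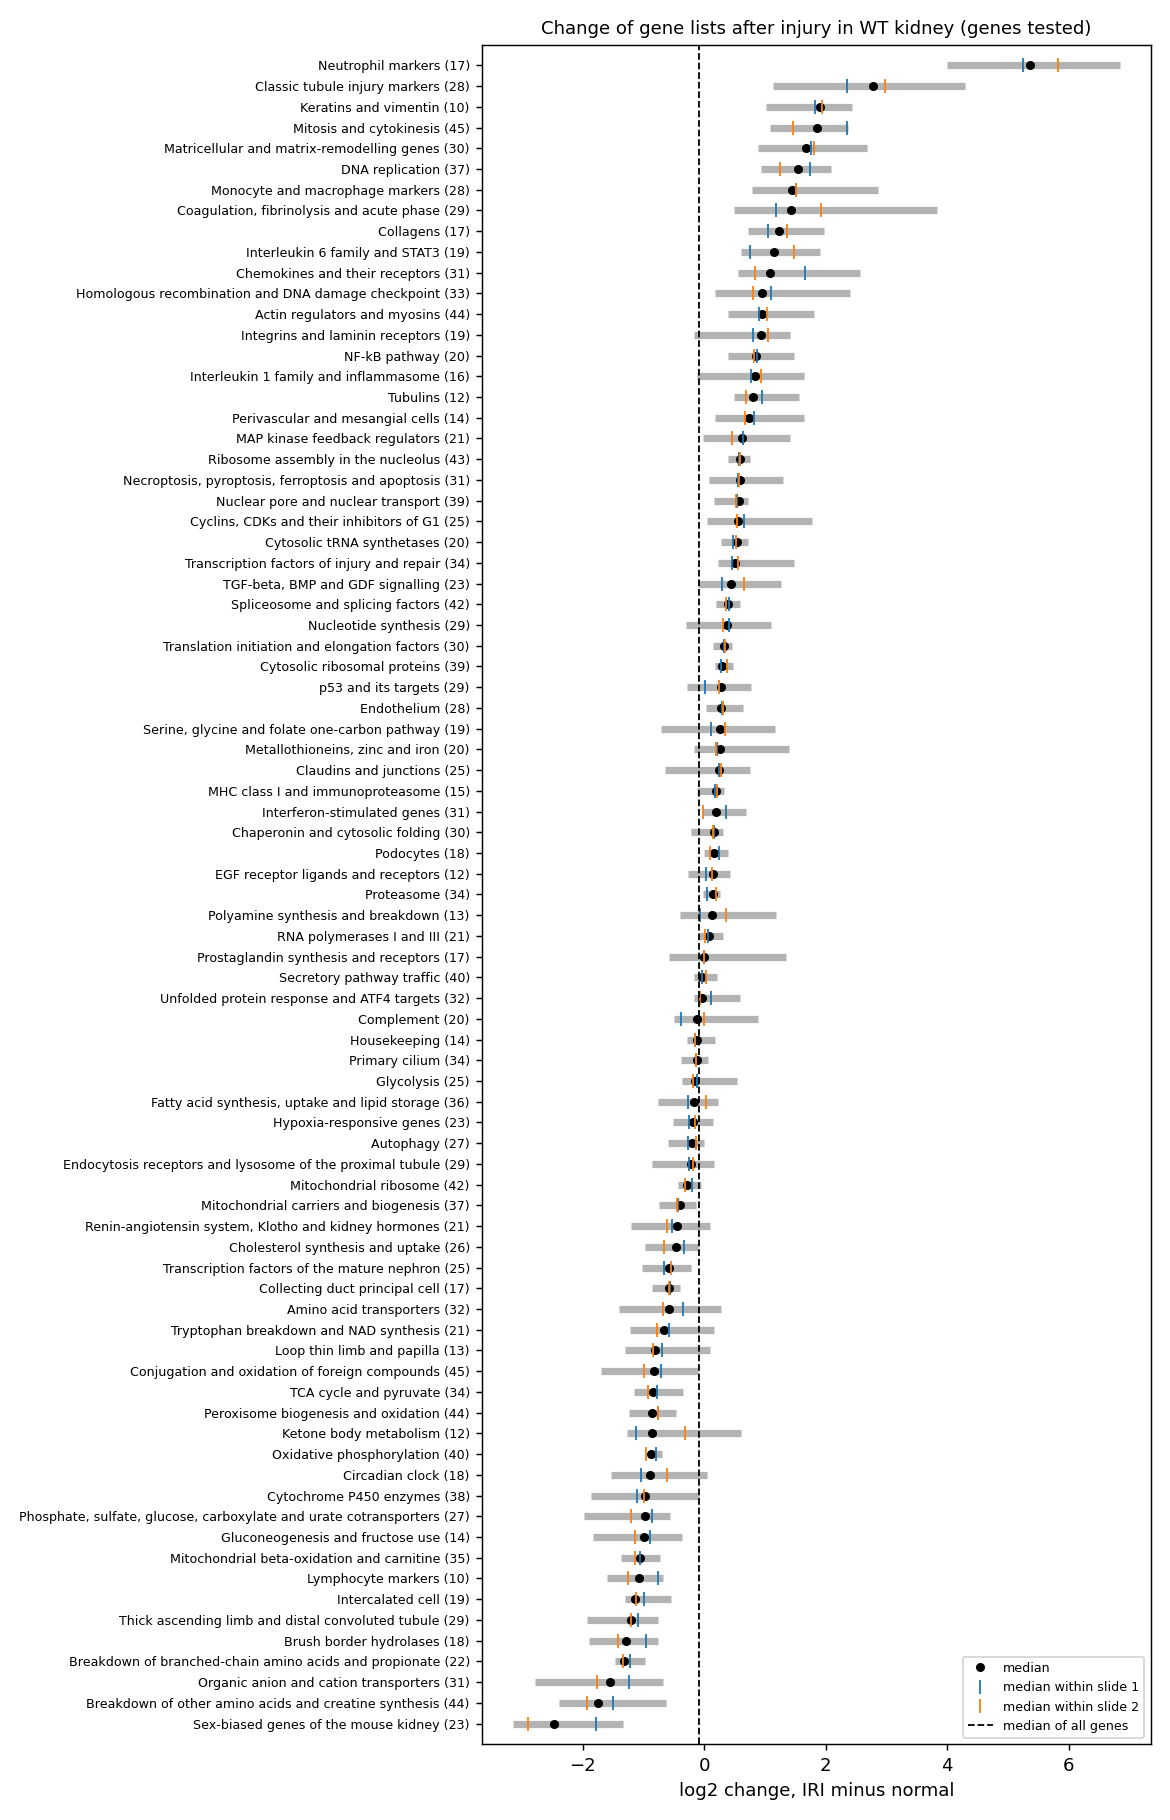
Median log2 change (IRI minus normal) of 81 gene lists with at least 10 tested genes, with bars from the lower to the upper quartile of the members and small marks for the medians within slide 1 and slide 2. The dashed line is the median of all 20244 genes, -0.08. Lists of cell division, cytoskeleton and matrix lie to the right and lists of amino acid breakdown, transport and detoxification to the left, on both slides.

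Genes of the machinery that builds ribosomes and makes protein rose as a broad front of modest changes. Ribosomes are assembled in the nucleolus by a large set of processing factors. Of 43 such factors 37 rose, 1 fell and 5 missed the threshold, with a median of 0.60 that was 0.58 on slide 1 and 0.59 on slide 2. Rrp12, which helps to export ribosomal subunits, stood at -2.72 and -2.67 in normal and at -1.24 and -1.10 in injured kidney, a rise of 1.53 ± 0.11 (SE, adjusted p = 0.000166). Ddx21, an RNA helicase of the nucleolus, rose by 1.32 and Nop58, a core protein of the particles that modify ribosomal RNA, by 1.16. The levels of these 3 genes did not overlap between the groups, like those of 76.9% of all genes. Utp20, another processing factor, was the member that fell (-0.42). Of 21 genes of polymerases I and III, which transcribe ribosomal and transfer RNA, 6 rose and none fell. That is 28.6%, near the 20.7% of all genes, and the median was 0.08, with the subunit Polr3d at the top (0.74). Under normexp correction the median lay 0.019 above that of all genes.

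Genes of the steps after that also rose more often than the 20.7% of all genes. Among 20 cytosolic tRNA synthetases, which load amino acids onto transfer RNA, 17 rose, none fell and 3 missed the threshold (median 0.54). The valine enzyme Vars went from 0.16 and 0.30 to 1.25 and 1.43, and the cysteine enzyme Cars rose by 0.95. Of 39 genes of the nuclear pore and nuclear transport 26 rose and none fell (median 0.57), with the pore protein Nup62 at 1.08 and the transport switch Ran at 0.97. Of 42 splicing genes 26 rose and 1 fell (median 0.39), led by Hnrnpa1 (1.19), which encodes an RNA-binding protein. The one that fell was Prpf8 (-0.33), the central scaffold of the spliceosome.

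Ribosomal proteins themselves rose in 28 of 39 cases with a median of 0.29, and translation factors in 18 of 30 with a median of 0.32. The directions of these 2 lists depend on the background correction: under normexp correction, where the median of all genes moved to 0.18, their medians lay 0.03 and 0.0034 below that of all genes. The elongation factor Eef2 fell, from levels of 5.51 and 5.54 to 4.92 and 4.92. Eif4ebp1, whose protein restrains cap-dependent translation, rose by 2.51 ± 0.20 (adjusted p = 0.000217), the largest rise among the translation factors. In the main setting the mitochondrial ribosome went against the cytosolic one, as 23 of 42 listed genes fell and none rose (median -0.28). Under normexp correction both lay below the median of all genes, the mitochondrial list by 0.59. Mrpl12 had the largest fall of the list, 0.66. Over all tested genes 25 of 49 with Mrpl symbols fell and 4 rose, led by Mrpl33 (0.92), and 14 of 29 with Mrps symbols fell and none rose. Protein folding and breakdown stayed near the background. The cytosolic chaperonin list had 10 rises and 2 falls among 30 genes (median 0.17), the constitutive chaperone Hspa8 falling by 0.82, and the proteasome had 9 rises among 34 with a median of 0.15, led by Psmd11 (0.61). Under normexp correction the medians of both of the latter lists were below that of all genes.

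Genes of DNA replication and mitosis rose together and to a greater extent, with medians of 1.54 and 1.85. Of 37 replication genes 32 rose, none fell and 5 missed the threshold (median 1.54), and 24 rose by at least 2-fold. Uhrf1, which couples DNA methylation to replication, stood at -3.14 and -3.07 in normal and at 1.40 and 0.48 in injured kidney. The rise of Uhrf1 by 4.05 ± 0.30 (adjusted p = 0.000165) was a 16.6-fold change. Mcm3, a subunit of the replicative helicase, went from -2.34 and -2.29 to 0.87 and 0.16, and Cdc6, which loads that helicase, was at least 5.35-fold higher. Among 45 genes of mitosis and cytokinesis 41 rose, 2 fell and 2 missed the threshold. Of the 45, 5 were below background on both normal arrays and were kept only through the injured arrays. The list's median was 1.85, and 1.67 once dim genes were placed at their bounds. Cdk1, the kinase that starts mitosis, went from -4.22 and -3.70 to -0.28 and -1.19, a rise of 3.23 ± 0.32 (adjusted p = 0.000443), and the cyclin Ccnb2 from -1.37 and -0.90 to 0.53 and -0.13. The members called lower were Pttg1 (-0.46), which encodes securin, and Bub1 (-1.43), a checkpoint kinase for which another probe was called higher and the mean of its probes rose by 1.09. Without WT normal replicate 1 the adjusted p of Ccnb2 was 0.0596.

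For Uhrf1, Mcm3, Cdk1 and Ccnb2 the injured array of slide 1 was the higher of the pair, and the lists followed. The median of the mitosis genes was 2.35 on slide 1 and 1.47 on slide 2, and that of the replication genes 1.74 and 1.24. Neutrophil and macrophage markers were higher on both injured arrays, with the higher sums on slide 2. The summed level of 17 neutrophil markers was 0.26 and 0.22 in normal and 5.84 and 6.94 in injured kidney. Of these 15 rose, but the filter had kept 11 of the 17 only through the injured arrays. The summed level of 28 macrophage markers, of which 21 rose, was 6.51 and 6.43 in normal and 7.03 and 7.33 in injured kidney. Their part in the results on growth and division, here and above, was not tested.

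The sequences just upstream of these genes are shown because members of the lists share short elements there. Windows from 250 bases before to 50 bases after the start of transcription came from RefSeq (GRCm38.p6) and were available for 11135 of the 13960 tested genes with a symbol. The letters CCAAT (read on either strand, where the trimeric factor NF-Y binds) and TTTGAA (either strand, the CHR element of mitotic genes) are in capitals for the kinase gene Cdk1, at chr10:69352863-69353162, and for the cyclin gene Ccnb2, at chr9:70421505-70421804, both on the minus strand.
Cdk1: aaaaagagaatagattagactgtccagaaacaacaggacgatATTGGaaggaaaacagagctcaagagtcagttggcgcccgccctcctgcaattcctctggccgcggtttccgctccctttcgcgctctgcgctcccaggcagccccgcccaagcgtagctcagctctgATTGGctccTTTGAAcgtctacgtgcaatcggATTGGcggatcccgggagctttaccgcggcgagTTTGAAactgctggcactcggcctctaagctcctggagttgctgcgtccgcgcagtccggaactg
Ccnb2: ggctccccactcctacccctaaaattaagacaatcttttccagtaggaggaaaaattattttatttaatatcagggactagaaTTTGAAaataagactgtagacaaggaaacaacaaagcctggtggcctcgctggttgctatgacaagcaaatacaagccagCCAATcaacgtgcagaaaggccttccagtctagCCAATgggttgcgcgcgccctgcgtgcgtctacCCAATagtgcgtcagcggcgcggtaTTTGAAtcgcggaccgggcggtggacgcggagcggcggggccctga
For the helicase gene Mcm3, at chr1:20820263-20820562 on the minus strand, CCAAT and the E2F elements TTTCCCGC and TTTGGCGC (either strand) are in capitals.
Mcm3: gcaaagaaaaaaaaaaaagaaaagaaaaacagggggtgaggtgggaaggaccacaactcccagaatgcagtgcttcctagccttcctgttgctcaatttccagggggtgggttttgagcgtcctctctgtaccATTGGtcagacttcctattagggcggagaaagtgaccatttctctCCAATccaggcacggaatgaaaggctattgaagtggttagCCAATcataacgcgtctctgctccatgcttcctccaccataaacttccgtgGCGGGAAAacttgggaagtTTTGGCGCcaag
None of the marked elements overlap each other in these windows. Shares are of genes with a window, and a gene counts as holding a motif if any of its windows does. CCAAT was held by 73.0% of 37 mitosis genes, 65.5% of 29 replication genes and 42.5% of all genes tested. TTTGAA was held by 64.9% of the mitosis genes against 14.8% of all genes tested. TTTCCCGC was held by 20.7% and TTTGGCGC by 17.2% of the replication genes, against 2.15% and 1.01% of all. Of the 37 mitosis genes none held TTTCCCGC. A match of letters is a description of these windows and not evidence of binding.

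Upstream regulators of the cycle rose as well. Ccne1, the cyclin that opens S phase, went from levels of -1.74 and -1.78 to 1.67 and 0.96, and the repressor E2f7, a late target of E2F, was at least 8.55-fold higher. In the list of G1 regulators 14 of 25 rose and 2 fell (median 0.56, or 0.44 with genes at their bound). Of the 25, 4 were below background on both normal arrays and were kept only through the injured arrays. The 2 that fell were the repressors Rbl2 (-0.61), a relative of RB, and E2f5 (-0.55). The CDK inhibitor Cdkn1a rose by 3.76 ± 0.46 (adjusted p = 0.000941) in the same kidneys. The levels of Cdkn1a were -2.98 and -2.44 in normal and 0.65 and 1.47 in injured kidney, higher on slide 2, where Cdk1 and Mcm3 were lower. The list of p53 and its targets, which holds Cdkn1a, was mixed: 11 of 29 rose, 4 fell and 14 missed the threshold (median 0.28). The p53 gene itself, Trp53, had the lowest value of the list (-1.36), with a level from 1 normal array only, but its direction is not settled, since another of its probes was called higher. Phlda3, an inhibitor of AKT signalling, rose by 1.69 and the receptor gene Eda2r was higher from below background, while Mdm2, which encodes the p53 ligase, was at -0.03 (adjusted p = 0.829). Of 33 genes of homologous recombination and the DNA damage checkpoint 21 rose and none fell (median 0.96, or 0.90 with genes at their bound). Of the 33, 6 were below background on both normal arrays and were kept only through the injured arrays. The nuclease Exo1 was at least 17.6-fold higher, and Brca1 went from -4.29 and -3.99 to -0.59 and -1.50. The kinases at the head of the checkpoint did not pass, with Atm at 0.04 (adjusted p = 0.731) and Atr at -0.31 (adjusted p = 0.0975).

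**Figure D2:**
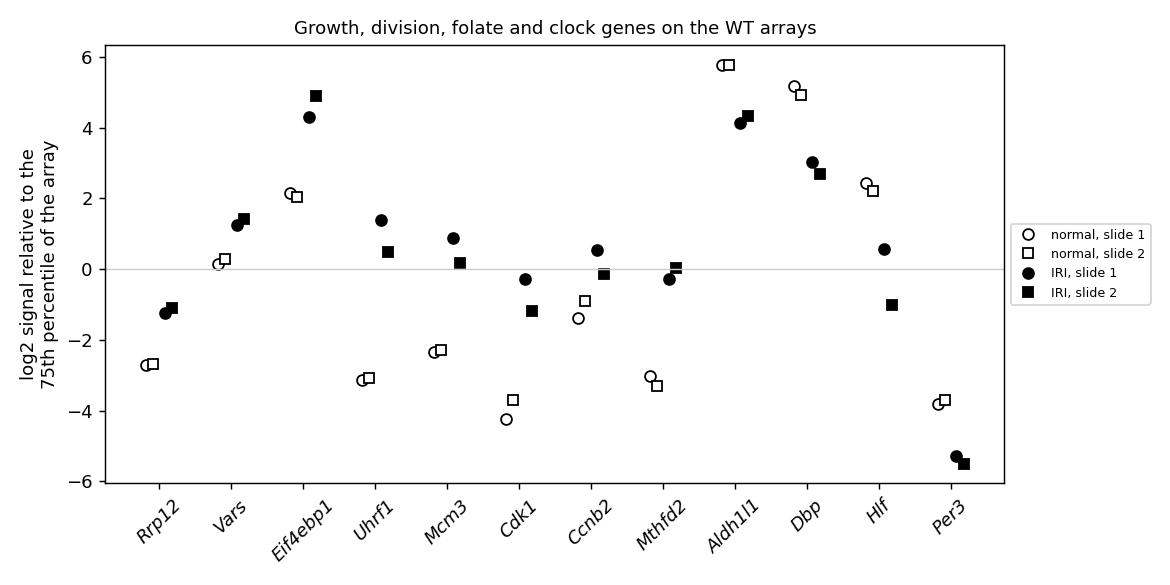
Levels of 12 genes on each of the 4 WT arrays (log2 signal relative to the array's 75th percentile, n = 2 per group), with normal arrays as open and injured arrays as filled symbols, circles for slide 1 and squares for slide 2. Ribosome assembly (Rrp12), tRNA loading (Vars), replication (Uhrf1, Mcm3) and mitosis (Cdk1, Ccnb2) genes were higher on both injured arrays, and the cytosolic folate gene Aldh1l1 and the clock genes Dbp, Hlf and Per3 lower.

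The RNA of genes that supply building blocks changed in both directions. In the list of serine, glycine and folate one-carbon genes 7 of 19 rose, 6 fell and 6 missed the threshold (median 0.26). The enzymes that make serine from glucose rose: Phgdh went from levels of 2.31 and 2.44 to 4.25 and 4.57, Psat1 from 1.09 and 1.33 to 2.75 and 3.51, and Psph, the last step, by 0.43. In the mitochondrial arm Mthfd2 and Mthfd1l, which take one-carbon units on to formate, rose, and so did Aldh1l2, which oxidises the formyl group to carbon dioxide. Mthfd2 went from -3.03 and -3.31 to -0.27 and 0.05, a rise of 3.06 ± 0.20 (adjusted p = 0.000125), Mthfd1l rose by 2.69 and Aldh1l2 by 1.80. Shmt2, which feeds the same arm, fell by 0.96. In the cytosolic arm Aldh1l1 went from 5.78 and 5.77 to 4.14 and 4.33, and Mthfd1 fell by 1.24, whereas Shmt1 was at -0.25 (adjusted p = 0.0967). Ahcy, which clears S-adenosylhomocysteine, fell by 1.46. The groups did not overlap for any of these genes past the threshold, nor for 76.9% of all genes. Asns, which makes asparagine, rose by 3.05 in the same manner, from 0.86 and 0.77 to 3.59 and 4.13.

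Nucleotide synthesis had 17 rises and 7 falls among 29 genes (median 0.38). The first pyrimidine enzyme, Cad, rose by 1.45, the ribonucleotide reductase subunit Rrm1 by 1.63, thymidine kinase Tk1 by 1.42 and the purine enzymes Atic and Impdh2 by 1.26 and 1.00. The first purine enzyme, Ppat, fell by 0.72, and its successors Pfas and Paics by 0.51 and 0.41. Polyamine genes were also divided, with 5 rises and 4 falls among 13 (median 0.14). Both arginases rose, the macrophage and liver form Arg1 at least 15.9-fold and the mitochondrial Arg2 by 2.39, as did Srm, which makes spermidine (1.19), and the oxidase Smox (1.91). Ornithine decarboxylase Odc1, the entry to the pathway, fell from levels of 7.25 and 7.23 to 6.77 and 6.40 (-0.66, adjusted p = 0.0250), and its antizymes Oaz1 and Oaz2 fell too. Arg1 differed widely between the injured arrays, at -2.34 and 0.24.

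**Figure D3:**
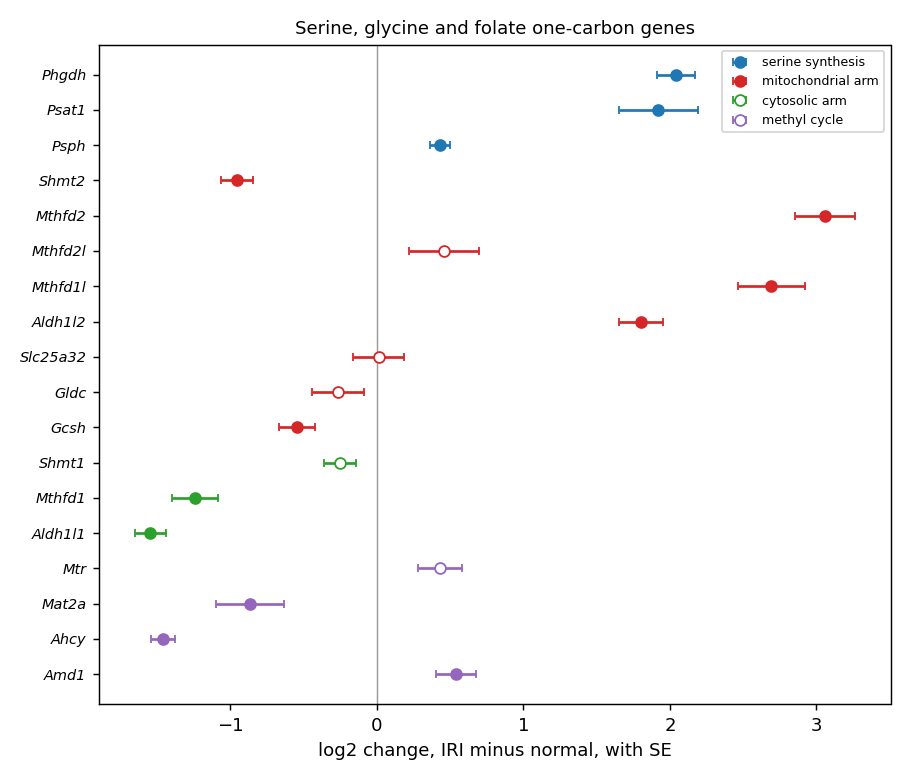
Log2 change (IRI minus normal) with SE of 18 genes of the serine, glycine and folate one-carbon list, grouped by their place in the pathway. Filled symbols passed the threshold of 0.05 and open ones did not. Genes of serine synthesis lie to the right of 0, genes of the mitochondrial arm range from Mthfd2 at 3.06 to Shmt2 at -0.96, and the 3 genes drawn for the cytosolic arm lie to the left of 0.

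Most of the listed cytoskeleton genes rose. Of 44 actin regulators and myosins 33 rose and 3 fell (median 0.96; 0.90 and 1.03 within the slides). The largest rise was in Flnc, a filamin otherwise known from muscle, from -4.47 and -5.14 to 0.44 and 1.29, a change of 5.67 ± 0.36 (adjusted p = 0.000111). The membrane-binding annexin Anxa3 rose by 3.15 and its relative Anxa2 by 2.98, with its partner S100a10 at 2.19. Beta actin, Actb, did not pass (-0.25, adjusted p = 0.0941), nor did the microvillus protein genes Vil1 (-0.23) and Ezr (0.39). Of 12 tubulin genes 10 rose and none fell, with Tubb6 going from 0.56 and 0.66 to 4.01 and 4.21. Keratins and other intermediate filaments rose in 9 of 10 cases (median 1.90).

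Receptors for the matrix rose in 11 of 19 integrin and laminin-receptor genes and fell in 1 (median 0.93). Cd44, the hyaluronan receptor, rose by 4.27, and the fibronectin and vitronectin receptor chains Itga5 and Itgb3 by 2.51 and 2.66. Itga8, the integrin of mesangial cells, fell by 1.33. Among claudins and other junction genes 10 of 25 rose and 8 fell, with no common direction. Cldn4 and Cldn1 rose by 2.43 and 1.92, while claudins of specialised segments fell, such as Cldn10 (-1.34), Cldn19 (-1.26) and Cldn16 (-0.75) of the loop of Henle and Cldn2 (-0.64) of the proximal tubule.

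Matrix genes rose by day 1, fibrillar collagens included. Col1a1 stood at 0.60 and 0.53 in normal and at 4.12 and 4.19 in injured kidney, and 13 of 17 collagens in the list rose (median 1.23). Over all 34 tested genes whose symbol begins with Col and a digit, 17 rose and 9 fell (median 0.72). In the list the genes that fell were Col14a1 (-0.58) and the pair Col4a3 and Col4a4 (-0.79 and -0.80), which form the network of the mature glomerular basement membrane, while Col4a1 and Col4a2 of the general network rose by 1.68 and 1.21. Of 30 matricellular and remodelling genes 24 rose and 1 fell, with a median of 1.68, or 1.64 with genes at their bound. Of the 30, 7 were below background on both normal arrays. The filter kept those 7 only through the injured arrays, so their direction was largely set in advance. Timp1, an inhibitor of matrix proteases, went from -2.46 and -2.57 to 3.37 and 4.26, and the proteases Mmp3, Mmp9 and Mmp7 were at least 31.3-fold, 13.1-fold and 6.28-fold higher. Timp3, another inhibitor, fell by 0.91.

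Of 12 EGF receptor ligands and receptors 3 rose, 1 fell and 8 missed the threshold (median 0.15). Below background on both normal arrays were 3 of the 12, kept only through the injured arrays. Areg was at least 2.98-fold higher and Nrg1 and Hbegf rose by 1.68 and 0.66, but Hbegf lost its call without any 1 of the 4 WT arrays (highest adjusted p = 0.177 in limma). Egf itself, made by the distal nephron, fell from levels of 5.97 and 6.02 to 0.66 and 0.0047, a 50.6-fold difference, and the receptor Egfr did not pass (0.12, adjusted p = 0.518), although another of its probes was called. In the TGF-beta superfamily 13 of 23 genes rose and 3 fell (median 0.44). The activin genes Inhba, at least 14.9-fold higher, and Inhbb (2.28) rose most together with Ltbp2 (3.97), a matrix protein related to the latent TGF-beta binding proteins, while Bmp7, a growth factor of the nephron, fell by 0.98. The interleukin 6 family and STAT3 list had 11 rises and 2 falls among 19, with a median of 1.15, or 0.86 with genes at their bound. Socs3, the feedback inhibitor of STAT3, rose from -0.57 and -0.55 to 2.98 and 3.63, the ligands Il11 and Clcf1 by 2.26 and 2.54, and the oncostatin M receptor Osmr by 2.20, whereas the LIF receptor Lifr fell by 0.99. This list was higher on slide 2 (1.47) than on slide 1 (0.75). Fosl1, a partner of JUN, was at least 21.6-fold higher and headed 12 rises among 21 MAP kinase targets. Other members of that list did not pass, such as Spry1 (-0.01, adjusted p = 0.948). In the NF-kB list 14 of 20 rose and none fell (median 0.85).

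The hormonal genes of the kidney fell in 12 of 21 cases and rose in 3 (median -0.44). Klotho, Kl, went from 4.66 and 4.67 to 2.58 and 1.71, and Ace, the angiotensin-converting enzyme of the brush border, from 0.71 and 0.82 to -1.44 and -1.84. Agt, the source of angiotensin, fell by 1.36 and the vitamin D receptor Vdr by 0.93. Renin, Ren1, rose by 0.73 ± 0.19 (adjusted p = 0.0174), and so did the endothelin gene Edn1 (1.71). In the prostaglandin list 6 rose and 6 fell among 17, with the inducible cyclooxygenase gene Ptgs2 rising from below background and the constitutive Ptgs1 falling by 0.63.

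Transcription factors divided by what they are known for. Of 25 factors of the mature nephron 15 fell and 1 rose (median -0.58). Hnf4a, which keeps proximal tubule identity, fell from 3.74 and 3.56 to 2.71 and 2.66, and the energy regulators Esrrb, Ppargc1a, Esrra and Ppara fell as well (-1.63, -1.27, -1.17 and -1.09). Emx1, a homeobox gene, fell by 1.55. Nr1i2, the xenobiotic receptor PXR, rose by 0.44, and the early kidney factor Pax8 did not pass (0.10, adjusted p = 0.744). Of 34 factors of injury and repair 18 rose and 2 fell (median 0.50). Sox9, of regenerating tubule, stood at -4.14 and -4.46 in normal and at -1.10 and 0.73 in injured kidney, and Snai1, Atf3 and Myc rose by 2.57, 2.32 and 2.18. Klf2, a factor of endothelium kept up by blood flow, fell from 8.57 and 8.85 to 6.84 and 6.56. The summed normal level of all 34 factors was 8.72 and 8.97, and whether this probe reads Klf2 alone was not tested.

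Most genes of the circadian clock fell. The clock is a loop in which BMAL1 and CLOCK drive their own repressors and output factors through E-boxes, and the output factors DBP, TEF and HLF drive others through D-boxes. Of 18 clock genes 11 fell, 3 rose and 4 did not pass (median -0.89; -1.04 and -0.62 within the slides). Dbp went from levels of 5.18 and 4.92 to 3.02 and 2.69, a change of -2.19 ± 0.48 (adjusted p = 0.00957). Hlf fell by 2.54, Ciart by 2.00, Per3 by 1.62, Tef by 1.55 and Nr1d1 by 1.49. Bmal1, listed as Arntl, rose from -2.79 and -1.98 to -1.40 and -1.11, and Nfil3, which competes with DBP for the same sites, rose by 1.36 ± 0.25 (adjusted p = 0.00441). All WT IRI levels of these 8 genes lay outside the range of the WT normal levels, which also held for 76.9% of all genes. Without WT normal replicate 1 limma's adjusted p was 0.0557 for Dbp and 0.0710 for Ciart, and without WT IRI replicate 2 it was 0.0603 for Arntl. Under normexp correction Per3 was at 0.19 (adjusted p = 0.872) and Ciart did not pass. The labels do not give the hour at which kidneys were taken, so time of day and injury cannot be told apart for these genes. The windows of Ciart, at chr3:95882179-95882478, and of Per3, at chr4:151044616-151044915, both on the minus strand, are shown with CCAAT (either strand), the E-box CACGTG, which reads the same on both strands, and the D-box TTATGTAA (either strand) in capitals.
Ciart: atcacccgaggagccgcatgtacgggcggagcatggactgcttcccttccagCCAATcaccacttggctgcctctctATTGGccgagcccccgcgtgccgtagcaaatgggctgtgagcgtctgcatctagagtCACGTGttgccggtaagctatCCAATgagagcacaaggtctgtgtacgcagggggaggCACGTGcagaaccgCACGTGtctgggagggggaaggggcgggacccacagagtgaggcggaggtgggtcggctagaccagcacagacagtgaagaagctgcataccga
Per3: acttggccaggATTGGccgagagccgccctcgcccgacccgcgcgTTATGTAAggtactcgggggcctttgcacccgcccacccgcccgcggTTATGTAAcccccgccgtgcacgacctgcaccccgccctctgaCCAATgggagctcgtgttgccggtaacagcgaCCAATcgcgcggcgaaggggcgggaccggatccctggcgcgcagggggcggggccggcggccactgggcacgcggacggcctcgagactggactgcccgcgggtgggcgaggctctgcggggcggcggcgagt
CACGTG was held by 33.3% of the 15 clock genes with a window and by 11.3% of all tested genes with a window. Of the 18 cholesterol genes with a window, a list given below, 27.8% held it. CCAAT was held by 86.7% of the 15 clock genes and by 42.5% of all tested genes with a window. The D-box letters were found in 1 of the 15, Per3, and in 0.736% of all.

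Among the leukocyte lists, most neutrophil and macrophage markers rose and lymphocyte markers did not. Of 17 neutrophil markers tested 15 rose, and 3 further markers were not tested. Of the 17, 11 were below background on both normal arrays. The filter kept those 11 only through the injured arrays, where they are high, so their direction was largely set in advance. The median change of the 17 was 5.36, or 3.72 with genes at their bound, and 2.71 under normexp correction. Retnlg was at least 71.3-fold higher, the receptor for the growth factor G-CSF, Csf3r, at least 13.9-fold and the formyl peptide receptor Fpr2 at least 9.59-fold. The granule gene Mpo of neutrophil precursors did not pass (-0.56, adjusted p = 0.0782). Macrophage markers rose in 21 of 28 cases and fell in 3 (median 1.44). Of the 28, 4 were below background on both normal arrays and were kept only through the injured arrays. The fallers were Csf1r (-0.97), Mertk (-0.85) and Cd74 (-0.75). Markers of resident and of incoming macrophages were not counted apart. Of 10 lymphocyte markers tested 5 fell and none rose, and 8 further markers were not tested because they were too dim. Their median of -1.07 became 0.44 under normexp correction, so this list has no settled direction. Of 5 dendritic and mast cell markers tested 1 fell and none rose (median 0.14), and 6 further markers were not tested.

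Most genes of MHC class II presentation fell within the same immune picture. Of 8 genes 5 fell, 1 rose and 2 did not pass (median -0.92; -0.75 and -1.09 within the slides). H2-Aa went from 0.50 and 0.58 to -0.66 and -0.80, H2-Ab1 from 4.21 and 4.23 to 3.28 and 2.87, and Ciita, the master regulator of the class, fell by 1.09. Ctss, a cathepsin that trims the invariant chain and is also active in other macrophage tasks, rose by 1.42. Class I genes had 5 rises and 1 fall among 15, led by the immunoproteasome subunit Psmb10 (0.94). Interferon-stimulated genes had 11 rises and 1 fall among 31. That is 35.5% and 3.23%, against 20.7% and 26.1% of all genes. Their median was small at 0.19, with 0.37 on slide 1 and -0.03 on slide 2. Oasl1 rose by 1.95, while Isg15 did not pass (0.36, adjusted p = 0.319). Iigp1, a GTPase induced by interferon gamma, fell by 1.05.

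Of 31 chemokine and receptor genes 17 rose and 4 fell, with a median of 1.08, or 0.92 with genes at their bound. Below background on both normal arrays were 9 of the 31. The filter kept those 9 only through the injured arrays, so their direction was largely set in advance. Ccl2, which draws monocytes, went from -3.31 and -3.18 to 1.68 and 1.22, and Cxcl1, which draws neutrophils, from -5.33 and -4.83 to -1.29 and -0.27. Cxcl9, which draws T cells, fell from -2.04 and -2.08 to -4.68 and -5.29 (-2.92 ± 0.51, adjusted p = 0.00390). Its relative Cxcl10 did not pass (1.00, adjusted p = 0.0661). The stromal chemokine Cxcl12 and its scavenging receptor Ackr3 fell by 0.90 and 1.04.

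Genes of plasma proteins, best known from the liver, moved in opposite directions. Of 29 genes of coagulation, fibrinolysis and the acute phase 20 rose and 3 fell (median 1.43, with 1.19 on slide 1 and 1.93 on slide 2). Of the 29, 5 were below background on both normal arrays and were kept only through the injured arrays. The fibrinogen chain Fgb went from -1.94 and -1.71 to 2.24 and 5.10, haptoglobin, Hp, from -0.52 and -2.65 to 2.51 and 3.23, and the fibrin cross-linker F13a1 from -4.23 and -5.38 to 0.23 and 1.34. Complement C3 rose by 3.61, and the acute-phase genes Saa3 and Serpina3n were at least 8.16-fold and 9.02-fold higher. In these genes the injured array of slide 2 was the higher. Several plasma protein genes that normal kidney expressed fell. Prothrombin, F2, was at least 40.5-fold lower. C8a, a complement chain of the membrane attack complex, went from 0.46 and 0.46 to -4.99 and -6.60, Serpina1c, an alpha-1 antitrypsin gene with several near-identical relatives, from 1.51 and 1.78 to -4.63 and -4.63, and Pzp, an alpha-2 macroglobulin relative, from 1.43 and 1.41 to -1.37 and -1.86. The complement list as a whole had 7 rises and 8 falls among 20 (median -0.11). Of 7 genes in a liver list 5 fell and none rose, albumin (Alb) by 1.22.

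**Figure D4:**
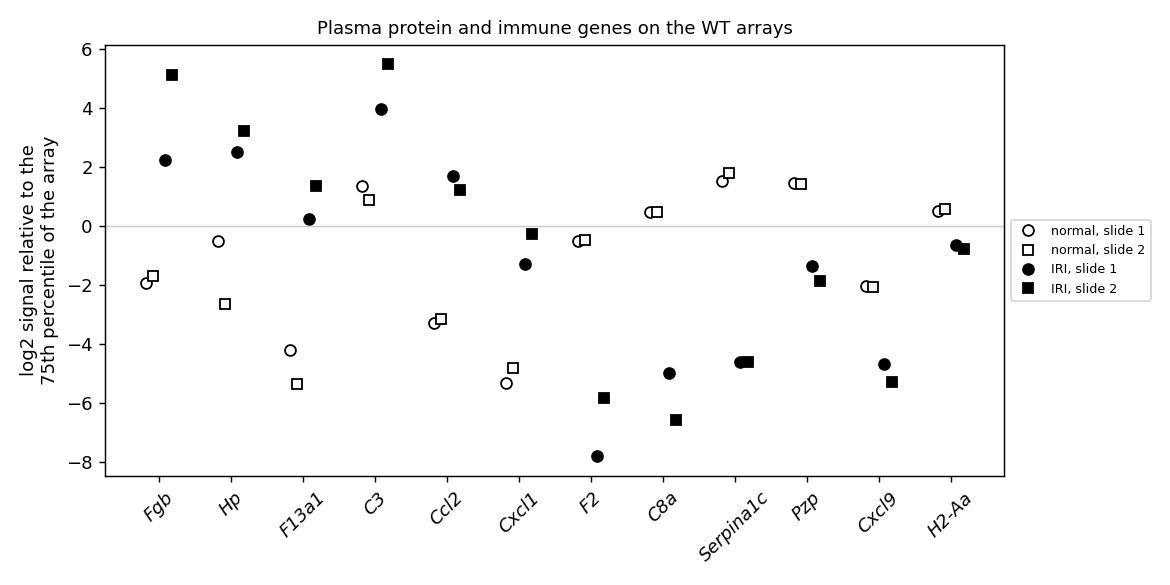
Levels of 12 genes of plasma proteins and immune mediators on each of the 4 WT arrays (log2 signal relative to the array's 75th percentile, n = 2 per group), with normal arrays as open and injured arrays as filled symbols, circles for slide 1 and squares for slide 2. Fgb, Hp, F13a1, C3, Ccl2 and Cxcl1 were higher on both injured arrays, and F2, C8a, Serpina1c, Pzp, Cxcl9 and H2-Aa lower. F2 was below background on both injured arrays.

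Most genes of amino acid breakdown fell. All 22 genes of branched-chain amino acid and propionate breakdown fell (median -1.31; -1.22 and -1.34 within the slides). Along the pathway, the transaminase Bcat2 fell by 1.21, the dehydrogenase subunits Bckdha and Dbt by 1.36 and 1.35, the leucine enzymes Ivd and Mccc2 by 2.11 and 1.94, and Pcca, of the propionate step, by 1.73. Ivd stood at 5.14 and 5.21 in normal and at 3.19 and 2.93 in injured kidney. Of 44 genes for other amino acids and creatine 34 fell and 3 rose, with a median of -1.75. The histidine enzyme Uroc1 went from 1.48 and 1.71 to -3.45 and -3.92 (-5.28 ± 0.20, adjusted p = 2.44e-05), and the tyrosine enzyme Hpd from 1.46 and 1.14 to -3.63 and -3.09. The steps after Hpd fell as well, Hgd by 1.92, Gstz1 by 1.60 and Fah by 1.97. Ass1, by which the kidney makes arginine for the body, fell from 7.27 and 7.29 to 5.05 and 4.47, and Gatm, the first step of creatine synthesis, changed by -2.15. Several genes that pass nitrogen between amino acids did not pass, among them Oat (-0.03, adjusted p = 0.819), Glud1 (0.03, adjusted p = 0.825) and Got1 (-0.12, adjusted p = 0.164).

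In tryptophan breakdown and NAD synthesis 11 of 21 genes fell and 2 rose (median -0.66). Ido2, an enzyme of the first step, fell from 0.92 and 1.03 to -2.09 and -3.52, Afmid and Kmo of the next steps by 1.89 and 2.28, and Qprt, which leads on to NAD, by 1.02. The 2 that rose were Nnmt (2.10), which uses up nicotinamide, and the aldehyde oxidase Aox1 (1.61).

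Most genes of the peroxisome, of mitochondrial fat oxidation and of the respiratory chain fell. Of 44 peroxisomal genes 39 fell and none rose (median -0.85; -0.76 on both slides). The largest falls named here were of enzymes: Pecr, an enoyl reductase, went from 7.29 and 7.49 to 5.51 and 4.12, and Hao2 and Amacr fell by 2.40 and 2.25. The import receptor Pex5 fell by 0.67 and its docking partner Pex14 by 0.40. Mitochondrial beta-oxidation fell in 31 of 35 cases (median -1.06), the medium-chain ligase Acsm3 at -3.80, while the carnitine carrier Slc25a20 did not pass (-0.10, adjusted p = 0.635). Respiratory chain genes fell in 39 of 40 cases with a narrow spread around a median of -0.87, between quartiles of -0.93 and -0.69. In quantile normalization that median was -0.45. Mitochondrial carriers and biogenesis genes fell in 21 of 37 cases (median -0.40), with 1 rise, the calcium-regulated ATP carrier Slc25a24 (3.08 ± 0.20, adjusted p = 0.000125). Of 12 genes of ketone body metabolism 6 fell, 2 rose and 4 missed the threshold (median -0.86). Bdh1, a ketone enzyme, went from 5.55 and 5.55 to 2.82 and 2.57, while the hormone gene Fgf21 was at least 2.08-fold higher, at -5.45 on one and -2.52 on the other injured array.

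Genes of cholesterol synthesis fell in 17 of 26 cases and rose in 2 (median -0.47; -0.33 and -0.66 within the slides). Along the pathway, Hmgcs1 fell by 1.13, Mvd by 1.07 and Idi1 from 3.63 and 3.50 to 1.85 and 1.12, while Fdps (0.02, adjusted p = 0.926) and Fdft1 (0.10, adjusted p = 0.694) did not pass, and Cyp51, of lanosterol demethylation, fell from 1.69 and 1.66 to -0.66 and -1.06. The regulator Insig1 fell by 1.61. CCAAT was held by 88.9% of the 18 cholesterol genes with a window and by 42.5% of all tested genes with a window. An example is Idi1, at chr13:8885356-8885655 on the plus strand, where it is in capitals.
Idi1: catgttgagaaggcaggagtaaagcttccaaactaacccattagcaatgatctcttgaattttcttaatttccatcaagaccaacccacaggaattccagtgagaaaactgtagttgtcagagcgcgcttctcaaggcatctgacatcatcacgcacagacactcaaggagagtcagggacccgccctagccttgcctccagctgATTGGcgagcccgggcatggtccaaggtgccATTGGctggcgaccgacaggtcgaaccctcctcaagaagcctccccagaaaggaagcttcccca
The other motifs searched were TTCCNGGAA, CAAAGTCCA, TCAAGGTCA and TGACTCA on either strand, of STAT3, HNF4, ERR and AP-1, and the palindromes of HNF1 and NRF1. Each was held by at most 4.83% of all tested genes with a window.

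Fat handling was mixed. In the list of fatty acid synthesis and storage 6 of 36 genes rose, 12 fell and 18 missed the threshold (median -0.16). The desaturase Scd1 fell by 2.81, lipoprotein lipase, Lpl, by 2.22 and the fatty acid receptor Cd36 by 1.41, while the lipid droplet coat Plin2 rose from 4.41 and 4.42 to 5.67 and 6.49. Fatty acid synthase, Fasn, did not pass (-0.01, adjusted p = 0.929).

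Glycolysis showed large changes of single genes in both directions, and most genes of gluconeogenesis and fructose use fell. Glycolysis had 7 rises and 9 falls among 25 genes, with a median of -0.15 that was 0.21 under quantile normalization. Hexokinase Hk2 rose from -3.30 and -4.03 to 0.41 and 0.65 and the lactate exporter Slc16a3 by 2.71, while Gapdh fell by 0.37 (0.09 under quantile normalization), Pfkm by 1.13 and Aldoc by 1.71, and Ldha did not pass (-0.15, adjusted p = 0.078, and 0.34 with adjusted p = 0.00515 under quantile normalization). Gluconeogenesis and fructose use fell in 11 of 14 cases (median -0.98), yet Pck2, the mitochondrial carboxykinase, rose by 1.12. Genes known to respond to low oxygen did not rise as a list at day 1, with 3 rises and 9 falls among 23 (median -0.18), the carbonic anhydrase Car9 falling by 1.95, Vegfa by 1.01 and Bnip3 by 0.84.

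Transporters of the proximal tubule fell to very different depths. Of 31 organic anion and cation transporters 25 fell and 3 rose (median -1.56). Slc22a7 went from levels of 5.49 and 5.53 to -0.84 and -1.78, and Slc22a13 from 4.41 and 4.53 to -1.88 and -2.38. The classic organic anion transporter Slc22a6 fell by 1.38 and the cation transporter Slc22a2 by 1.82. Slc22a19 and Slc22a26, of a rodent-specific cluster whose near-identical copies a probe may not separate, fell by 6.17 and 5.82. The transporters that rose pump compounds out of the cell: Abcc3 by 2.11, Abcb1b by 1.09 and Abcc4 by 0.88. Of 27 cotransporters for phosphate, sulfate, sugars and carboxylates 20 fell and 4 rose (median -0.98), among them the lactate transporter Slc5a8 (-3.18), and the risers including the phosphate carriers Slc20a1 (0.70) and Slc34a2 (0.82), which are known from many tissues and from lung. Amino acid transporters fell in 17 of 32 cases and rose in 7 (median -0.59). Those that rose included the leucine, arginine and cystine carriers Slc7a5 (2.38), Slc7a1 (1.24) and Slc7a11, at least 2.92-fold higher, and those that fell included carriers of the brush border, Slc3a1 (-1.77) and Slc6a19 (-1.46).

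At the brush border 16 of 18 genes fell and none rose (median -1.29; -0.96 and -1.41 within the slides). The meprin subunit Mep1b went from 3.22 and 3.20 to -2.83 and -4.43, a 115-fold difference, while its partner Mep1a fell by 2.55. The endocytic receptors Lrp2 and Cubn, which retrieve filtered protein, fell from 7.23 and 7.19 to 5.57 and 4.83, and by 1.66, but the lysosome that follows them had both directions, with 7 rises and 13 falls among 29 genes of the combined list. The proteases Ctsd and Ctsb rose by 0.88 and 0.73 and the membrane protein Lamp2 fell by 0.81.

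Most genes of segments beyond the proximal tubule fell too. Of 29 genes of the thick ascending limb and distal convoluted tubule 27 fell and none rose (median -1.21; -1.08 and -1.20 within the slides). The calcium-binding protein gene Pvalb was at least 61.5-fold lower, Calb1 went from 5.52 and 5.68 to 1.42 and 1.65, and the sodium transporter Slc12a1 from 4.97 and 5.18 to 2.85 and 2.35. Umod, a widely used marker of the limb, fell by only 0.40 ± 0.083 (adjusted p = 0.00785) and was at 0.30 under quantile normalization, and the calcium channel Trpv5 did not pass (-0.10, adjusted p = 0.753). Intercalated cell genes fell in 15 of 19 cases (median -1.13), Rhcg by 1.65, and principal cell genes in 11 of 17 with 2 rises (median -0.58), the water channel Aqp4 by 1.73, while Aqp2 overlapped between the groups at 3.64 and 4.09 against 2.67 and 3.71 (adjusted p = 0.262).

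The podocyte and endothelial lists had medians nearer 0 than the perivascular one. Podocyte genes had 5 rises, 4 falls and 9 not passing among 18 (median 0.16), and the nephrin gene Nphs1 did not pass (-0.01, adjusted p = 0.934). Synpo fell by 4.58, but another of its probes was called higher. Endothelial genes had 8 rises and 2 falls among 28 (median 0.27), with the adhesion molecule gene Vcam1 at 1.83 and the VEGF receptor Kdr at -0.67. Perivascular and mesangial genes rose in 8 of 14 cases and fell in 3 (median 0.75), Pdgfrb by 1.89 and Acta2 by 2.72.

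**Figure D5:**
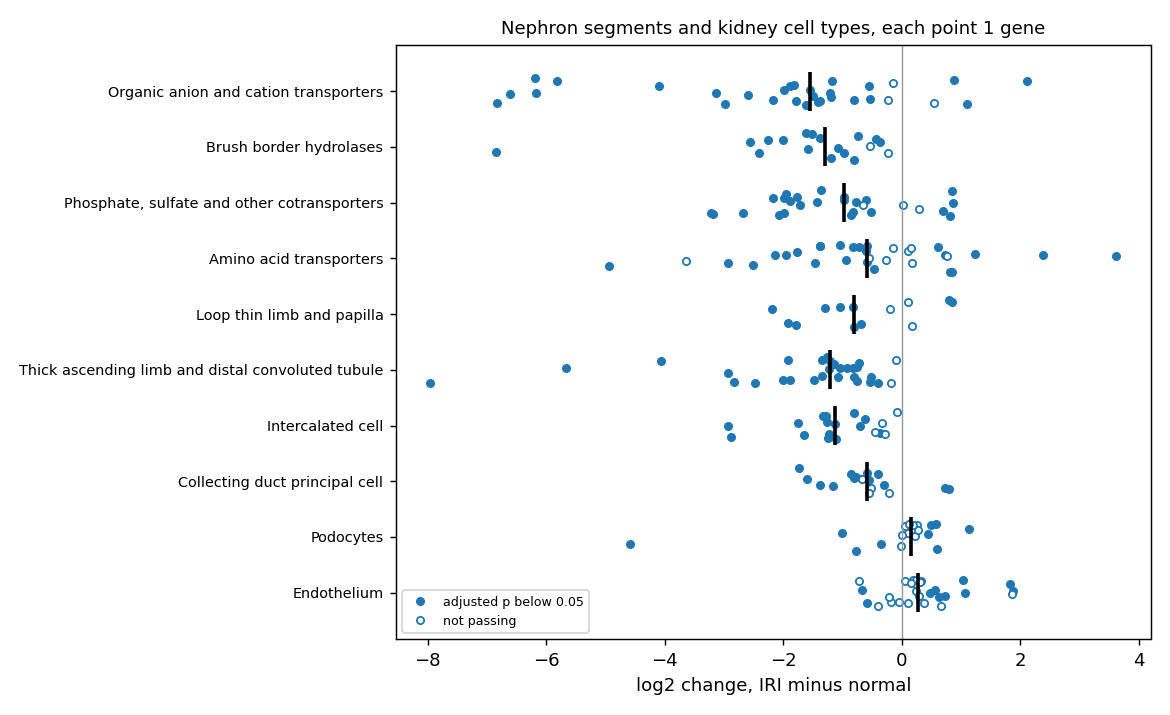
Log2 change (IRI minus normal) of every tested member of 10 lists of nephron segments and kidney cell types, with filled points for genes past the threshold of 0.05, open points for the others and a bar at the list's median. Brush border, transporter and distal nephron lists lie to the left of 0, from a median of -1.56 for organic anion and cation transporters to -0.58 for principal cells, and podocyte (0.16) and endothelial (0.27) lists lie close to it.

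Male mouse kidney differs from female kidney in many proximal tubule genes, some of which androgens maintain. The list of 23 sex-biased genes holds male-biased and female-biased ones and was not split by direction of bias. Of the 23, 19 fell and 2 rose, with a median of -2.48 (-1.78 on slide 1 and -2.90 on slide 2). Akr1c18, a steroid reductase, went from 1.23 and 1.65 to -5.35 and -5.16, and Cyp7b1, a male-biased steroid hydroxylase, from 4.94 and 4.88 to -0.63 and -0.33 (-5.40 ± 0.11, adjusted p = 3.69e-06). The androgen-regulated Kap, in contrast, fell by only 0.56, from levels of 8.09 and 8.03 to 7.58 and 7.41, and was at 0.12 under quantile normalization. The 2 that rose, Abcc3 and Timd2 (1.10), are female-biased, but female-biased members were not counted apart.

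Detoxification genes fell more often than they rose. Of 38 cytochrome P450 genes 24 fell and 5 rose (median -0.98), with Cyp7b1 at the lower end, as given above, and Cyp3a13 being at least 6.67-fold higher. Of 45 genes of conjugation and oxidation 28 fell and 9 rose (median -0.82). The carboxylesterase Ces1d fell by 2.92, while the risers were glutathione transferases apart from the sulfotransferase gene Sult2b1 (1.16). Examples are Gsta1 (from 4.33 and 4.57 to 5.80 and 5.89) and Gsta2 (1.26). Within the mu class Gstm1 and Gstm2 fell by 0.90 and 1.34, while Gstm5 and Gstm6 rose by 0.73 and 0.71. The members of the Ces1, Gsta, Ugt2b and Cyp2d families resemble each other closely, and a probe may bind several.

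Most lists of basic cell functions stayed near the background or had both directions, apart from those of autophagy and cell death. Over all genes 20.7% rose and 26.1% fell. Secretory traffic had 10 rises and 8 falls among 40 genes (median -0.03), the retrieval receptor Kdelr3 rising by 2.74. The unfolded protein response and ATF4 list had 6 rises and 4 falls among 32 (median -0.04). Besides Asns, those that rose are on the ATF4 side: Chac1 (3.39), Trib3 (3.26), Atf5 (2.53), Nupr1 (1.35) and Atf4 (0.72), whereas the chaperone gene Hspa5 of the endoplasmic reticulum was at -0.16 (adjusted p = 0.462), and Herpud1 fell by 1.18. Autophagy genes had 2 rises and 11 falls among 27, that is 7.41% and 40.7% (median -0.20). The mitophagy gene Pink1 fell by 1.44 and Sqstm1 rose by 0.52. Cilium genes had 4 rises and 11 falls among 34 (median -0.11). Housekeeping genes had 1 rise and 4 falls among 14 (median -0.11), Sdha falling by 1.16. Cell death genes rose in 15 of 31 cases, which is 48.4%, and fell in 4, which is 12.9% (median 0.59). Ripk3 and Mlkl of necroptosis rose by 2.89 and 2.67, and Gpx4, which blocks ferroptosis, fell by 0.69. Of the metal-binding list 9 of 20 rose and 4 fell, with the metallothionein Mt2 rising by 2.67 and the zinc importer Slc39a8 falling by 2.26.

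Blood and neighbouring tissue were measured as well. The haemoglobin genes Hba-a1 and Hbb-bt fell by 2.26 and 2.09, and their levels differed widely between the normal arrays, at 4.78 and 6.57 for Hba-a1. Skeletal muscle actin, Acta1, rose by 2.86 and myoglobin, Mb, from below background, while the fat genes Adipoq (0.21, adjusted p = 0.893) and Plin1 (0.13, adjusted p = 0.937) did not pass. The part of red cells or muscle in other results was not tested.

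When all symbols were grouped by their letters before the first digit, 372 families had at least 6 tested genes. The lowest medians belonged to Ugt (-1.76, 9 of 11 fell), Ces (-1.68, 12 of 12), Hsd (-1.34, 14 of 16), Upk (-1.13, 4 of 6), Aqp (-1.10, 6 of 9), Rdh (-0.92, 8 of 11), Aldh (-0.91, 11 of 18) and Gstm (-0.90, 4 of 7), that is glucuronosyl transferases, carboxylesterases, hydroxysteroid dehydrogenases, uroplakins, aquaporins, retinol and aldehyde dehydrogenases and a class of glutathione transferases. The highest belonged to Cdca (2.14, 6 of 7 rose), Mmp (2.11, 11 of 14), Ms (1.66, 6 of 9), Csf (1.61, 5 of 6), Tubb (1.53, 6 of 7), Mcm (1.47, 7 of 10), Serpina (1.43, 3 of 7) and Krt (1.40, 11 of 18), that is division-cycle genes, matrix proteases, the MS4A membrane proteins, colony-stimulating factors and receptors, beta tubulins, the replicative helicase, serpins and keratins. The grouping is by letters only and can join unrelated genes.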

How the data were processed

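Total RNA of whole left kidneys was labelled with Cy3 and hybridised to 1-colour Agilent mouse arrays. The deposited intensity values are the scanner software's processed signals, background-subtracted and spatially detrended within each array by Agilent Feature Extraction 10.7.3.1, per the file headers. The deposited log2 table of the series, whose scaling is not stated, served as an alternative. Its columns followed the scaled and probe-centred scanner values with r of at least 0.998.

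Each array's log2 signal was scaled to its 75th percentile, control spots and outliers were left out, and 27065 of 41174 probes well above background on both WT normal or both WT IRI arrays were kept. A gene was represented by its brightest probe. This gave 20244 genes tested, 13960 of them with a symbol and 6284 with an array identifier. limma 3.58.1 in R 4.3.3 fitted the 4 group means on all 8 arrays with an intensity trend, and p-values were adjusted by Benjamini-Hochberg over all genes tested. On simulated data for this comparison, run on 20294 genes, 50% of 100 genes changed by 1 and 88% of 100 changed by 2 on the log2 scale were recovered. No other genes were changed there, while 46.8% were called in the data. The adjusted p depends on that share, so the recovery in the data itself is not known. With 2 arrays per group an exact permutation test cannot go below p = 0.333.

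The file headers place replicate 1 of every group on one slide and replicate 2 on the other, with each group at its own position, so position and group cannot be told apart. Same-numbered arrays deviated together with r between 0.018 and 0.265. The slide as a block leaves the differences as they are and is among the alternatives, with quantile normalization, normexp correction, other filters and leaving out each array.

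The gene lists, like the comparison itself, were chosen with earlier results of these data known. Named genes are the reference markers, the largest changes over all genes, the largest changes of each list on both sides with the largest that did not pass, and members that follow the order of a pathway. Some further members were named after their values were seen. A few genes of the lists are counted but not reported here by name.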

Additional observations from a re-analysis of the deposited data

Results flagged for a closer look

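For 36 of the genes named above, the injury response of KD kidneys differed from that of WT kidneys (KD minus WT, interaction term in limma, adjusted p below 0.05). Across all genes 6.25% did. The difference was above 0 for the genes of division and nucleotide synthesis, with Uhrf1 2.89, Exo1 3.23, Cdk1 2.31, E2f7 1.98, Brca1 1.95, Mcm3 1.90, Ccne1 1.69, Rrm1 1.28, Cad 0.80, Impdh2 0.46 and Nup62 0.62. Uhrf1 changed by 4.05 in WT and by 6.94 in KD kidney. For the repressors that fell in WT the differences were Rbl2 -0.77 and E2f5 -0.59. For matrix, junction and vascular genes they were Col1a1 1.72, Col14a1 1.41, Col4a3 -1.50, Col4a4 -0.85, Itga8 1.14, Cldn1 2.03, Cldn19 1.17, Cldn2 -1.25, Acta2 -1.08 and Vcam1 0.96. The clock genes Nfil3 and Arntl went in opposite directions in the genotypes, with differences of Nfil3 -2.89 and Arntl -1.95, while the median of the clock list was below 0 in both, at -0.89 in WT and -1.23 in KD. Nfil3 was at 1.36 in WT and at -1.53 in KD, and Arntl at 1.14 and -0.81. The labels do not give the hour of harvest, and its part in these differences was not tested. For metabolic and hormonal genes the values were Hpd -2.48, Esrrb -1.40, Ahcy -0.54, Glud1 -0.74, Got1 -0.84, Gstm2 0.66 and Ren1 -1.67. The remaining differences were Herpud1 -1.48, Kdelr3 1.26, Mertk -0.78 and Psmb10 0.85.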

How the results depend on the processing

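The 9480 calls (4191 higher, 5289 lower) moved with the background correction, the filter and a fold minimum. Under normexp correction 5265 genes were called, 2217 higher and 3048 lower, and the median of all genes was 0.18. Without a filter on dim probes 15250 were called, 10884 of them lower. With a fold minimum of 2 there were 3419 calls, 1717 higher and 1702 lower. Leaving out 1 array gave between 5939 and 9778 calls, between 2745 and 4320 higher and between 3194 and 5458 lower. With the replicate number, which is also the slide, as a block, 10139 genes were called, and none of the 276 called genes named here lost its call. Quantile normalization gave 9451 calls, the deposited log2 values gave 9275 and the fit of only the 4 WT arrays gave 8588. With only probes well above background on all 4 WT arrays 8763 genes were called, 3634 higher and 5129 lower. Of the 276 called genes named here 244 kept their call there, 1 lost it and 1 reversed, and the others were not in that fit.

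Of these 276 genes 235 passed in all 8 fits that left out 1 array. Trp53 could not be fitted without WT normal replicate 1. The other 40 lost their call in 1 or more, with the highest adjusted p between 0.0524 and 0.177: Abcb1b, Ackr3, Arntl, Ccnb2, Ciart, Ciita, Cldn16, Col14a1, Col4a3, Dbp, Fgf21, Gapdh, Gatm, Gpx4, Gstm5, Gstm6, Hba-a1, Hbb-bt, Hbegf, Hmgcs1, Hspa8, Iigp1, Inhbb, Kdr, Mrpl12, Mvd, Nr1i2, Oaz2, Odc1, Pex14, Pfas, Polr3d, Ppara, Prpf8, Ptgs1, Ren1, Slc22a6, Slc34a2, Tk1 and Utp20. Under normexp correction 32 lost their call and 1 reversed, Per3 at 0.19. Under quantile normalization 11 lost it and 3 reversed, with Umod at 0.30, Kap at 0.12 and Gapdh at 0.094, and Ldha, not called in the main setting, was at 0.34. With the mean of all probes Bub1 was at 1.09 and Trp53 at 0.60, and with only probes well above background on all 4 WT arrays Trp53 was at 0.68. Among the lists, the median of the lymphocyte markers was 0.44 under normexp correction. That of the fat, adrenal, muscle and blood list ranged from -0.98 to 1.32 over the fits without 1 array, the lowest being without WT normal replicate 2. Besides lists flagged above, others changed sides of the median of all genes under normexp correction. Relative to that median, the one-carbon list went from 0.35 to -0.03 and the polyamine list from 0.22 to -0.22. The class I list went from 0.28 to -0.07 and the metal-binding list from 0.34 to -0.02. The prostaglandin, unfolded protein response and secretory traffic lists also changed sides. The cause of these changes was not tested. Signal over background limits the dim genes, whose folds are given as bounds.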
